A study of Pan troglodytes with 217 samples.

Results

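The genes described here are 10 members of the AP-1 family and its companion immediate early genes: FOS, FOSB, FOSL1, FOSL2, JUN, JUNB, JUND, EGR1, IER2 and DUSP1. They were taken by name from the 33729 chimpanzee Ensembl identifiers of the count table. An identifier was found for 9 of the 10, and JUN, which had no matching identifier, was skipped. The cells came from chimpanzee blastoids, blastocyst-like structures grown from naive induced pluripotent stem cells, at day 4 of culture. Clusters of naive cells were first held in a medium with an inhibitor of MEK, the kinase that activates ERK, and were later moved to media without it. The mural trophectoderm was cut off with needles, it and the inner cell mass with polar trophectoderm were dissociated apart, the mural part for longer, and single cells went into SMART-seq2, a full-length cDNA method with a separate library for every cell. All cells carry the same label, with no blastoid, line, plate or dissected part given, so they are 1 sample, no test across samples could be made, and values are descriptions of these cells.

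AP-1 is a dimer of a FOS protein with a JUN protein, or of JUN proteins with each other, that binds DNA through a basic leucine zipper. Immediate early genes are transcribed within minutes of a growth factor, stretch or stress signal, without new protein synthesis, and their short-lived transcripts then fade. Much of that signal runs through ERK and the related stress kinases, and DUSP1 is a phosphatase that switches those kinases off again. Single-cell dissociation is itself known to induce these genes.

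All but 24 cells had at least 4000 reads and 8000 detected genes, with totals from 1679888 to 25630392 reads. Those that passed fell into 50 epiblast-like cells, 32 hypoblast-like cells and the trophectoderm-like cells, in clusters of 60 and 51. In each class 9 of the 10 matched markers of its own list reached 10 CPM (reads divided by all reads of a cell or group, times 1e6), although 7 of 10 trophectoderm markers did so in epiblast-like cells and LAMA1, a hypoblast marker, was higher in trophectoderm-like cells (319.2 CPM) than in hypoblast-like cells (166.7 CPM). POU5F1 stood at 1341 CPM in epiblast-like cells, GATA4 at 92.2 CPM in hypoblast-like cells and GATA3 at 691 CPM in trophectoderm-like cells. The hypoblast-like class was not free of other markers, since 5 of the 10 matched epiblast markers and 5 of the 10 trophectoderm markers also reached 10 CPM there. Its own markers were not read in every cell. GATA4 was read in 21 of the 32 cells, with a median of 23.8 CPM, and FOXA2 in 15. Markers of fibroblasts or feeder cells stayed under 10 CPM in all classes. Each class level below is the pooled CPM, the reads of a gene summed over the cells of a class, with an exact 95% Poisson interval. That interval and the exact 95% binomial intervals of shares cover counting error only, since amplified copies of a molecule are counted again. CPM is not corrected for transcript length and is compared between cells, never between genes.

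A member counted as higher or lower in a class when its pooled CPM differed at least 2-fold from that of all other passing cells. The background is the same count over the 15804 genes with a read in at least 20 passing cells. EGR1 had a read in 19 passing cells, just below that filter, so 8 members were counted and EGR1 is described apart. In epiblast-like cells 4 of the 8 members were higher (background 19.8% of genes) and 1 was lower (background 12.3%). In hypoblast-like cells 1 was higher (background 6.77%) and 1 lower (background 18.5%). In trophectoderm-like cells 0 were higher (background 11.5%) and 3 were lower (background 21%). The median log2 ratio of the 8 members was 0.74 in epiblast-like cells against 0.11 for all genes, and -0.74 in trophectoderm-like cells against -0.09. The cells behind these counts differed from member to member, as the plot of single-cell levels shows.

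**Figure D1:**
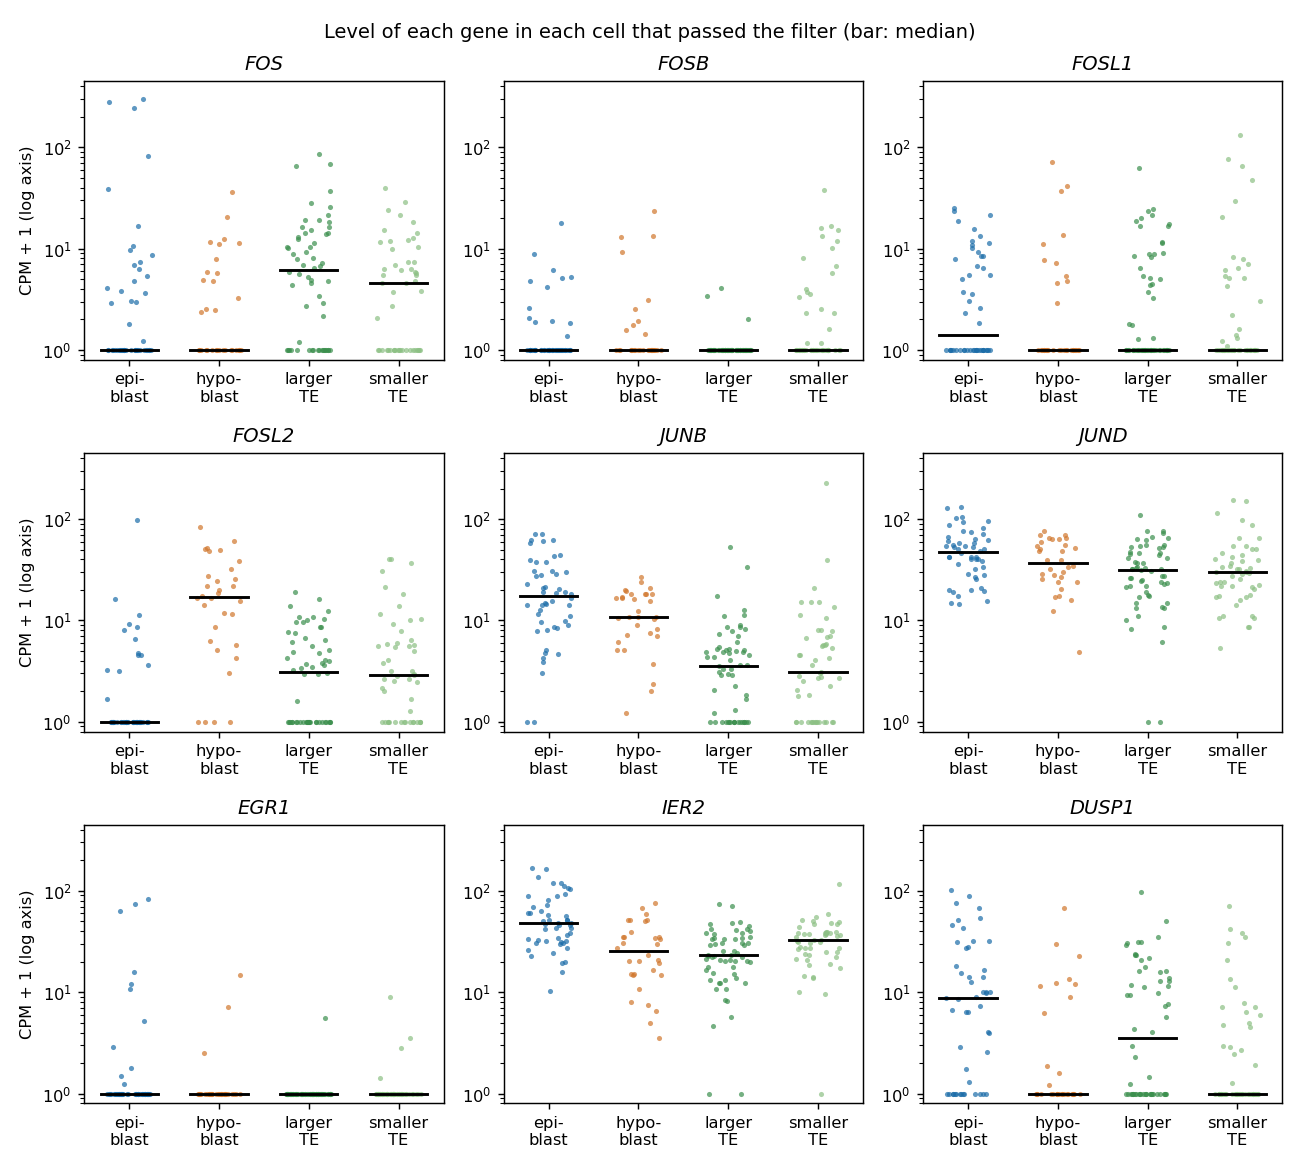
Level of each of the 9 matched genes (CPM + 1, log axis) in each passing cell, by class and, for trophectoderm-like cells (TE), by cluster, with a bar at the median. FOS in epiblast-like cells is a median of 0 with 5 cells at 38.1 CPM or more, FOSL2 is highest in hypoblast-like cells, JUNB falls in quartile range from epiblast-like to trophectoderm-like cells, and JUND and IER2 have reads in nearly every cell.

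FOS (ENSPTRG00000047703) encodes the founding subunit of the FOS family and is among the most transient of the immediate early genes. In epiblast-like cells its pooled level was 24.6 CPM (95% interval 23.95 to 25.3), against 5.17 CPM (4.78 to 5.57) in the hypoblast-like and 8.10 CPM (7.86 to 8.35) in the trophectoderm-like class. Read in this way FOS was 3.27-fold higher in epiblast-like than in all other cells. The single cells gave the opposite order. The median epiblast-like cell held 0 CPM of FOS with an upper quartile of 4.28 CPM, and the median trophectoderm-like cell 4.26 CPM with an upper quartile of 10.7 CPM. A FOS read was found in 72 trophectoderm-like cells (64.9%, interval 55.2% to 73.7%), but in 22 cells of the epiblast-like class (44%, 29.99% to 58.7%) and 15 of the hypoblast-like class (46.9%, 29.1% to 65.3%). Thinned to 2532312 reads per cell, with 20 shallower cells left out, these shares were 64%, 41.7% and 56%, in the same order. FOS was therefore detected in more of the trophectoderm-like cells at a low level, and in fewer of the epiblast-like cells with a few at a very high level.

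The high epiblast-like cells were those whose titles carry the numbers 26, 28, 30, 31 and 32. Their FOS levels were 279.7, 38.1, 299.4, 80.99 and 245.3 CPM. Together they held 93.5% of the FOS reads of the epiblast-like class but 11.7% of all its reads. The other 45 epiblast-like cells ranged from 0 to 15.9 CPM with a median of 0. Nothing in the labels says what the number of a cell stands for. The remaining passing cell numbered between 26 and 32, the hypoblast-like cell 27, had 0 CPM of FOS, and no trophectoderm-like cell carried a number in that run. Cell 29, which had 7547 detected genes and did not pass, had 0 CPM of FOS but 250.2 CPM of IER2 and 75.3 CPM of EGR1.

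Without the passing cells numbered 26 to 32, a selection made after their values were seen, the FOS order turned round. The pooled level was then 1.82 CPM in 45 epiblast-like cells against 7.55 CPM in all others, 4.16-fold lower. In trophectoderm-like cells FOS was then 2.53-fold higher, at 8.10 CPM against 3.20 CPM. Of the 4 members higher in epiblast-like cells, 1 was still at least 2-fold higher, JUNB. Epiblast-like cells outside the run thus did not have high FOS. Within the run the high FOS cells were all epiblast-like, with 1 passing cell of another class beside them. What the run stands for was not tested.

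**Figure D2:**
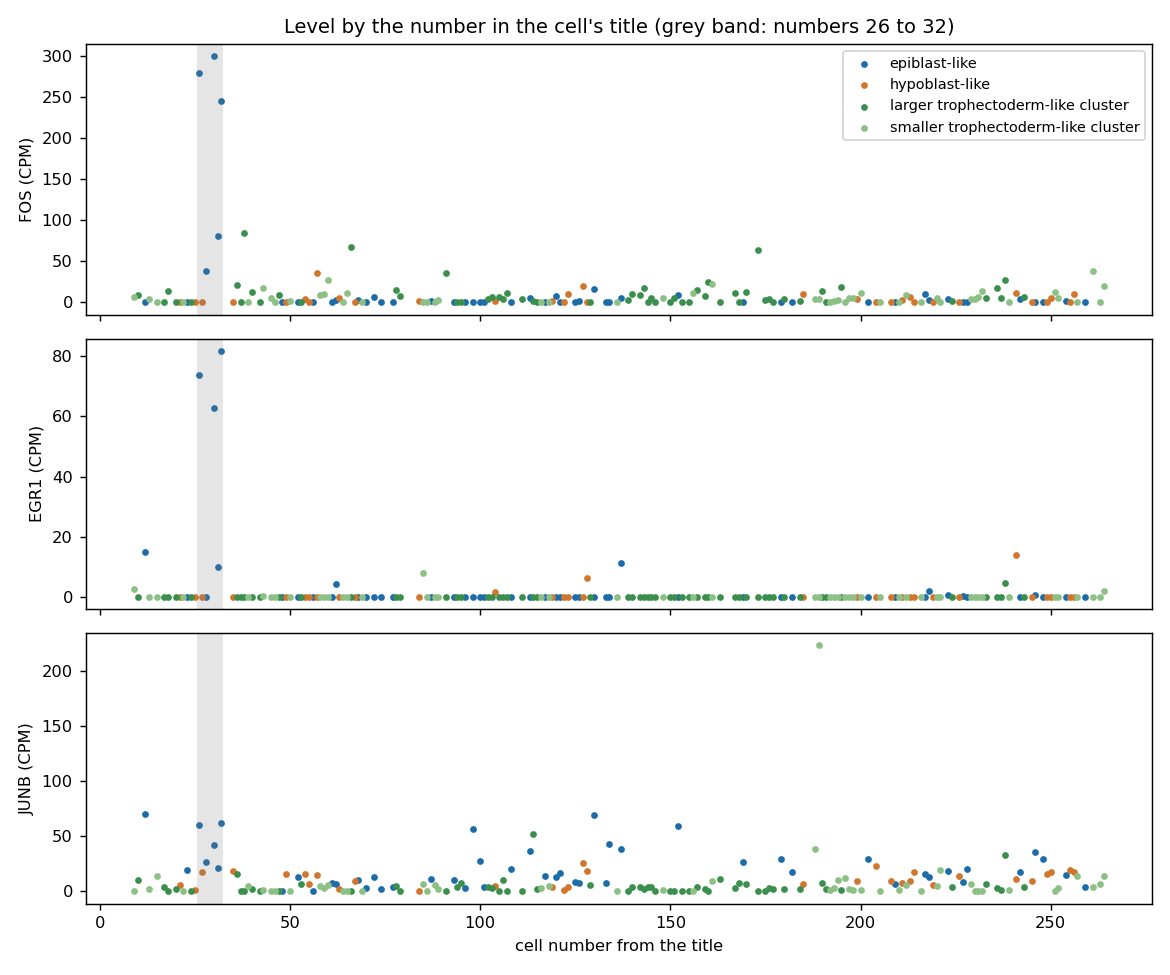
FOS, EGR1 and JUNB (CPM, linear axes) in each passing cell against the number in the cell's title, coloured by class and trophectoderm-like cluster, with numbers 26 to 32 shaded. The FOS and EGR1 levels above 60 CPM in epiblast-like cells all lie in the shaded band, whereas JUNB levels above 40 CPM also occur in cells outside the band.

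In depth and quality these 5 cells lay within the range of the other epiblast-like cells. Their median total was 5621288 reads, against 3902071 in the others. They had 9753 to 12158 detected genes, against 9075 to 13692 in the other epiblast-like cells. The mitochondrial share of reads was 1.93% to 7.51% in the 5 cells and 0.00683% to 9.09% in the others. Their mean log2 level of heat shock genes was 8.51 to 9.18, inside the range of 7.96 to 9.65 of the others. They held NANOG at 159.1 to 349 CPM, and both GATA3 and PDGFRA, markers of trophectoderm and hypoblast, were at 0 CPM in all 5. ATF3, the stress-induced bZIP factor, had a median of 0 CPM in the 5 cells and 2.96 CPM in the other 45. ZFP36, an immediate early gene for an mRNA-decay factor, had medians of 16.5 and 6.80 CPM, and MCL1, a survival gene with a short-lived product, 500.5 and 291.7 CPM, with overlapping ranges. What sets the 5 cells apart was not tested.

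EGR1 (ENSPTRG00000045439), a zinc finger factor induced alongside FOS, showed the same cells. Pooled, it reached 6.12 CPM (5.79 to 6.46) among epiblast-like cells, with reads in 11 of the 50. In the hypoblast-like class it was at 0.700 CPM (0.563 to 0.861; 3 cells) and in the trophectoderm-like class at 0.120 CPM (0.0920 to 0.154; 5 cells). The median was 0 CPM in each class. Among the 5 epiblast-like cells of the run it was at 73.8, 0, 62.6, 9.80 and 81.8 CPM, in number order, and these cells held 88.5% of the EGR1 reads of the class. In the other 45 epiblast-like cells EGR1 reached at most 14.9 CPM, and their pooled level was 0.800 CPM against 0.237 CPM in all other cells. FOS was read in 8 of the 11 epiblast-like cells with EGR1 (72.7%) and in 14 of the 39 without it (35.9%).

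FOSB (ENSPTRG00000046160), the close relative of FOS, was sparse. Reads were found in 13 epiblast-like cells (1.13 CPM pooled), 10 hypoblast-like cells (1.46 CPM) and 23 trophectoderm-like cells (1.40 CPM). Over all passing cells no class differed by 2-fold from the others. Without the passing cells of the run with high FOS, FOSB was 2.19-fold lower in epiblast-like cells (0.648 against 1.42 CPM). The trophectoderm-like clusters did differ: FOSB was at 2.80 CPM in the cluster of 51 cells (2.60 to 3.01) and at 0.0715 CPM in the cluster of 60 cells (0.0431 to 0.112), 39.2-fold higher. The lower value rests on 19 reads, and the ratio was 66.98 without the cell that held the most of them and 7.16 on the log2 scale, in place of 5.29, with cells from 7000 detected genes. It was read in 20 of the 51 cells and in 3 of the 60. It was the 1 member of the 8 that differed by 2-fold between these clusters (background 11.8% of genes higher and 11.2% lower in the smaller cluster).

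The smaller cluster also carried syncytiotrophoblast markers. The summed level of CGA, INSL4, SDC1 and ERVFRD-1, genes of the fused hormone-producing trophoblast, had a median of 34.4 CPM in its cells (range 0 to 14337 CPM). In the larger cluster the median was 0.215 CPM (range 0 to 583 CPM). Of the 4 markers 3 exceeded 10 CPM pooled in the smaller cluster, INSL4 being the exception at 3.88 CPM, and none was at 0. In the smaller cluster FOSB was read mostly in cells with these markers. At a sum of 300 CPM or more, a value set after seeing the data, FOSB was read in 15 of 17 cells of the smaller cluster (88.2%), and below it in 5 of 34 (14.7%). The quartile range of FOSB was 1.55 to 10.8 CPM in the 17 cells and 0 to 0 CPM in the 34. A total of 5 cells of the cluster lay between 150 and 600 CPM, near the dividing value. The median number of detected genes was 11465 in the 17 cells and 11536 in the 34. Spearman's rho of FOSB with the marker sum over the 51 cells was 0.50, given as a description, and 0.11 in the larger cluster. In the larger cluster the 3 cells with FOSB had marker sums of at most 43.4 CPM. In the smaller cluster 2 cells with FOSB, at 15.6 and 7.02 CPM, had a marker sum of 0. At a marker sum of 300 CPM or more FOSB was also read in 2 of 2 hypoblast-like cells and 1 of 1 epiblast-like cell. Below it FOSB was read in 26.7% and 24.5% of these classes. The 1 cell of the larger cluster at 300 CPM or more had no FOSB read.

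**Figure D3:**
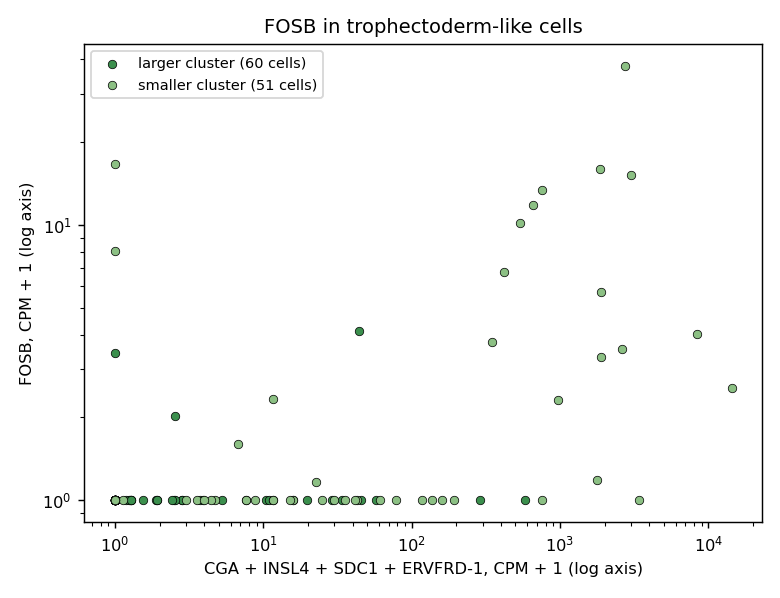
FOSB (CPM + 1, log axis) against the summed level of 4 syncytiotrophoblast markers (CPM + 1, log axis) in the 60 cells of the larger and 51 cells of the smaller trophectoderm-like cluster. Cells with a marker sum of 300 CPM or more have FOSB reads in 15 of 17 cells of the smaller cluster, and 1 of the highest FOSB cells, at 15.6 CPM, has a marker sum of 0.

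Along the same division, 5 of the 8 counted members were at least 2-fold higher pooled in the cells with high marker sums (background 14.8% of genes) and 1 was lower (background 12%). The division was chosen with FOSB in view. DUSP1 was read in 11 of the 17 cells and 11 of the 34, at 9.58 and 3.07 CPM pooled, or 6.18 and 2.46 CPM without the highest cell of each. FOS went the other way from FOSB: it was read in 6 of the 17 cells with high marker sums, with a pooled level of 2.13 CPM, and in 24 of the other 34, with 7.61 CPM. JUND had a median of 49.7 CPM (quartiles 26.6 and 87.3) in the 17 cells and 23.6 CPM (16.2 and 35.01) in the 34. JUNB had medians of 4.65 and 1.79 CPM, with overlapping quartile ranges. The pooled JUNB level of the 17 cells, 14.7 CPM, was 6.95 CPM without their highest cell. FOSL1 was read in 9 of the 17 cells and 13 of the 34, with pooled levels of 16.5 and 3.42 CPM, or 8.17 and 1.38 CPM without the highest cell of each. FOSL2 was read in 11 of the 17 cells and 24 of the 34, with pooled levels of 8.37 and 3.48 CPM. FOS was thus the 1 member of its family with a lower pooled level in the cells with high marker sums.

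FOSL1 (ENSPTRG00000003901) encodes FRA1, a FOS family subunit that lacks the activation domain of FOS and is long known from trophoblast. Pooled levels ran from 4.45 CPM among epiblast-like cells (25 with a read) over 6.69 CPM in the trophectoderm-like class (50 with a read) to 7.98 CPM in the hypoblast-like class (11 with a read), without a 2-fold difference. The pooled and the typical cell differed here too: the median was 0.419 CPM in epiblast-like cells and 0 CPM in both other classes. A single hypoblast-like cell held 39.1% of the FOSL1 reads of its class, and a trophectoderm-like cell at 132.3 CPM held 24.2%. FOSL1 reads were thus concentrated in few cells in the hypoblast-like class, less so among epiblast-like cells, where no cell held more than 13.5%.

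FOSL2 (ENSPTRG00000049710) encodes FRA2, the other FOS-related subunit without that activation domain. In hypoblast-like cells it had a median of 15.96 CPM with quartiles of 5.15 and 27.5 CPM, and was read in 28 of 32 cells (87.5%, 71.01% to 96.5%). In epiblast-like cells the median was 0 CPM with an upper quartile of 1.80 CPM, and it was read in 14 of 50 cells (28%, 16.2% to 42.5%). In trophectoderm-like cells the median was 1.98 CPM with an upper quartile of 5.38 CPM, and it was read in 69 cells (62.2%, 52.5% to 71.2%). The quartile ranges of hypoblast-like and epiblast-like cells did not overlap, and those of hypoblast-like and trophectoderm-like cells met narrowly. Pooled, FOSL2 was at 21.4 CPM in hypoblast-like cells (20.6 to 22.2) and 4.32 CPM in all others, 4.96-fold higher. Pooled, it was lower at least 2-fold in both other classes, at 3.46 CPM in the epiblast-like and 4.68 CPM in the trophectoderm-like class. Between medians of single cells the trophectoderm-like log2 ratio was 0.34 in place of -1.12. A single epiblast-like cell, at 97.1 CPM, held 58.7% of the FOSL2 reads of its class. Among the 5 epiblast-like cells with high FOS, FOSL2 was at 0 CPM in each.

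JUNB (ENSPTRG00000029110) is a JUN family subunit whose transcript is itself induced early. It was the member with the clearest order over cells. Epiblast-like cells ranged from 0 to 70.4 CPM with a median of 16.4 CPM and quartiles of 8.22 and 29.5 CPM. Hypoblast-like cells ranged from 0.210 to 26.04 CPM with a median of 9.87 CPM and quartiles of 6.20 and 17.3 CPM. Trophectoderm-like cells had a median of 2.55 CPM and an upper quartile of 5.43 CPM, with 1 cell at 223.5 CPM. The quartile range of trophectoderm-like cells overlapped with neither of the others, while those of epiblast-like and hypoblast-like cells overlapped. These were 2 of 3 class pairs that did not overlap in quartile range, out of 27 pairs over the 9 genes, the third being that of FOSL2. Over all counted genes the ranges were apart in 6.86% of such pairs: 10.8% between epiblast-like and trophectoderm-like, 5.23% between hypoblast-like and trophectoderm-like and 4.56% between epiblast-like and hypoblast-like cells. Pooled, JUNB was 3.18-fold higher in epiblast-like than in all other cells (23.4 against 7.37 CPM), and 2.85-fold higher without cells 26 to 32 (20.9 against 7.32 CPM).

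JUND (ENSPTRG00000042879), the JUN subunit that is present without stimulation in most cells, was read in all but 2 of the passing cells. The median fell from 46.02 CPM among epiblast-like cells to 35.7 CPM in the hypoblast-like and 29.7 CPM in the trophectoderm-like class, with overlapping quartile ranges throughout. Pooled levels of 50.99, 40.02 and 35.9 CPM followed the same order with no 2-fold difference. JUN itself was not matched. Of the matched JUN family members, JUND had reads in nearly all cells of every class and JUNB varied more between classes.

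**Figure D4:**
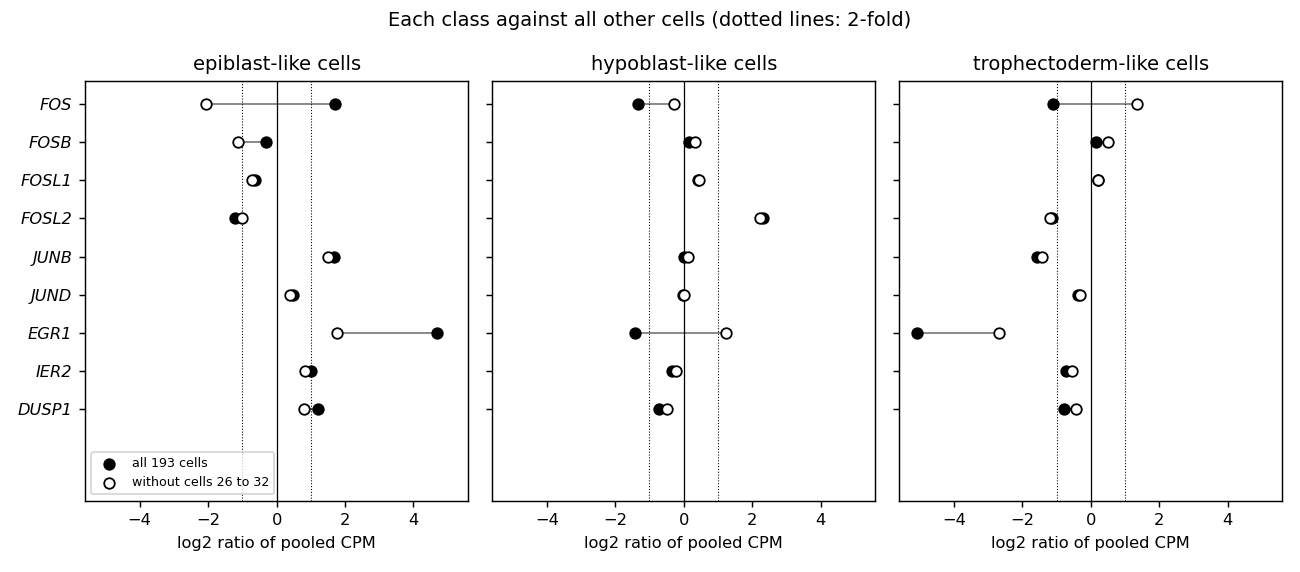
Log2 ratio of pooled CPM in each class against all other passing cells for the 9 matched genes, over all passing cells (filled) and without the cells numbered 26 to 32 (open), with dotted lines at 2-fold. FOS crosses 0 in epiblast-like and trophectoderm-like cells when those cells are left out (from 1.71 to -2.05 and from -1.10 to 1.34), whereas FOSL2 in hypoblast-like cells and JUNB in epiblast-like cells stay beyond the 2-fold line.

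IER2 (ENSPTRG00000049474) encodes a short nuclear protein induced with the FOS and JUN genes. It was read in all but 3 of the passing cells. Epiblast-like cells had a median of 46.7 CPM with quartiles of 30.9 and 70.3 CPM, and hypoblast-like cells a median of 24.4 CPM with quartiles of 13.9 and 35.4 CPM. Trophectoderm-like cells had a median of 26.9 CPM with quartiles of 18.6 and 37.1 CPM, overlapping with both. Pooled over epiblast-like cells, IER2 stood at 59.8 CPM against 29.9 CPM in all others, 2.00-fold higher and so at the limit of the rule. It was 1.76-fold higher without cells 26 to 32.

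DUSP1 (ENSPTRG00000017534) encodes the phosphatase that inactivates ERK, p38 and JNK. Epiblast-like cells had a median of 7.70 CPM, and 36 of the 50 had a read. The median was 0.229 CPM in the trophectoderm-like class, where 56 cells had a read, and 0 CPM in the hypoblast-like class, where 12 did. Pooled, it was 2.32-fold higher in epiblast-like than in other cells (17.1 against 7.36 CPM), and 1.73-fold higher without cells 26 to 32 (12.8 against 7.40 CPM). Its higher level in epiblast-like cells was thus partly in those cells, which held 33.8% of the DUSP1 reads of the class.

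Cell-to-cell correlation was computed within each class as Spearman's rho of log2(CPM + 1) and averaged over the 3 classes, for the 28 pairs of the 8 counted members. Cells share a sample, and correlations also carry what cells share in depth and composition, so rho is given without a p. The median over the 28 pairs was 0.12, against 0.015 over all gene pairs. A rho of at least 0.3 was reached by 4 of the 28 pairs, 14.3%, where the background was 0.489% of gene pairs. Restricted to genes read in at least 50% of the cells, it was 4 of 15 pairs, and the background 0.933%.

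JUNB, JUND and IER2 formed the group that varied together. They were also the members read in the most passing cells, at 82.4%, 98.96% and 98.4%. Each other member was read in 57.5% or less. The part of detection in this grouping was not tested. The mean rho was 0.45 for JUND with IER2, 0.44 for JUNB with IER2 and 0.38 for JUNB with JUND. Each was positive in every class, from 0.29 for JUND with IER2 in trophectoderm-like cells to 0.62 for the same pair in epiblast-like cells. Without cells 26 to 32 the mean values were 0.44, 0.43 and 0.35. All 3 genes lie on the same chromosome in the RefSeq annotation of a newer chimpanzee assembly, with 19 protein-coding genes between JUNB and IER2. JUND lies farther from both, and FOSB is on that chromosome too. The part of chromosome position in this grouping was not tested.

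FOS varied with parts of that group in epiblast-like and hypoblast-like cells, and not in trophectoderm-like cells. Its rho with JUND was 0.40 in epiblast-like, 0.35 in hypoblast-like and -0.01 in trophectoderm-like cells, and with JUNB 0.38, -0.06 and -0.0030. With IER2 it was 0.32, 0.28 and -0.05. Without cells 26 to 32 the epiblast-like values fell to 0.29 with JUND, 0.24 with JUNB and 0.21 with IER2, all under 0.3. The fourth pair above 0.3 was FOS with DUSP1, at a mean of 0.31. In hypoblast-like cells this pair reached 0.53, and DUSP1 was read in 10 of the 15 hypoblast-like cells with FOS and in 2 of the 17 without. There FOS also followed total reads (rho 0.54) and detected genes (0.50), and fell with the mitochondrial share (-0.55), as DUSP1 did (-0.40). With cells thinned to 2532312 reads each, the pair had a rho of 0.48 in the 25 hypoblast-like cells that were deep enough. Detected genes were not matched. The part of the mitochondrial share was not tested. The mean over classes was under 0.3 when thinned (0.28), within the 4 clusters (0.26) and without cells 26 to 32 (0.25).

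FOSL2 was weakly correlated with most other members. Its mean rho was -0.20 with IER2 and between -0.08 and -0.02 with FOS, FOSB, FOSL1, JUNB and JUND. The median over all gene pairs was 0.015. In hypoblast-like cells, where FOSL2 was highest, its rho with IER2 was -0.48. In trophectoderm-like cells it was 0.03 with FOS, 0.08 with FOSB, 0.08 with JUNB and 0.09 with JUND. There it was -0.01 with FOSL1 and -0.04 with IER2. With DUSP1 the mean rho of FOSL2 was positive, at 0.13. With thinned cells it was also positive with FOSB (0.01) and JUNB (0.02). FOSB had its highest mean rho with JUNB, at 0.28, and 0.35 in trophectoderm-like cells.

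**Figure D5:**
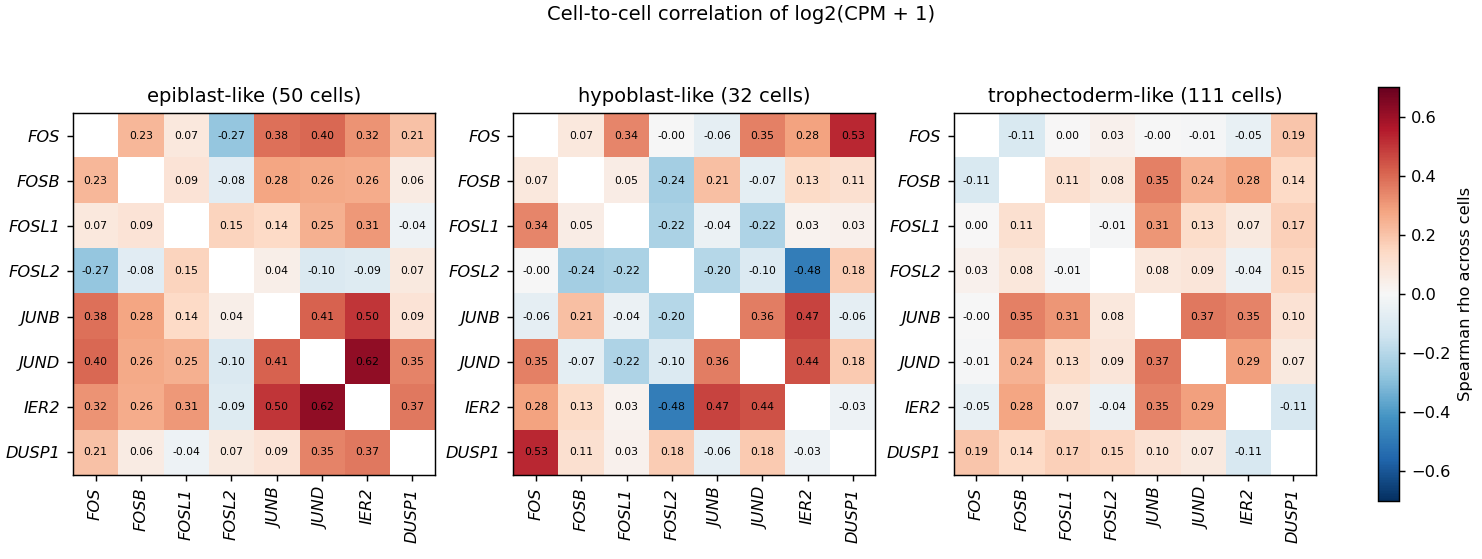
Spearman's rho of log2(CPM + 1) for the 28 pairs of 8 genes in the 50 epiblast-like, the 32 hypoblast-like and the trophectoderm-like cells, from -0.7 (blue) to 0.7 (red). The JUNB, JUND and IER2 block is positive in all 3 classes, the FOS row is positive with JUNB and IER2 in epiblast-like cells but near 0 in trophectoderm-like cells, and FOSL2 with IER2 is lowest in hypoblast-like cells.

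By class, the median rho of the 28 pairs was 0.22 in epiblast-like, 0.04 in hypoblast-like and 0.09 in trophectoderm-like cells, and 9, 6 and 4 pairs reached 0.3. Of all gene pairs 3.54%, 7.32% and 1.67% did so in these classes of different size, so the counts are not compared between classes. Without cells 26 to 32 the epiblast-like median was 0.13 and 4 of its pairs reached 0.3. The mean level of the members in a cell followed detected genes (mean rho 0.39), total reads (0.24) and, inversely, the mitochondrial share (-0.31). With the heat shock genes, a sign of handling, its rho was 0.13. Given the number of detected genes, the median partial rho of the pairs was 0.10, and 3 pairs reached 0.3.

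Few passing cells held most of the members at a high level. At 100 CPM or more, 0 of the passing cells had 5 or more of the 9 members, which allows a share of up to 1.55%, and the most in a passing cell was 3. FOSB, FOSL2 and EGR1 stayed below that level in every passing cell. At 50 CPM or more 3 passing cells had 5 or more members, the epiblast-like cells 26, 30 and 32 with high FOS. Cell 41, left out with 6008 detected genes, had 7 members at 100 CPM or more and 8 at 50 CPM or more. At 10 CPM or more, 23 cells (11.9%, 7.71% to 17.3%) had 5 or more members: 8 epiblast-like, 6 hypoblast-like and 9 trophectoderm-like cells. JUNB was among them in 18 of the 23 cells, DUSP1 in 15, FOS in 14 and FOSL2 in 13, where 33.2%, 29.02%, 21.8% and 19.2% of all passing cells had that level. JUND and IER2 were among them in all 23, but 93.3% and 90.7% of all passing cells had 10 CPM or more of these genes. Cell 30, one of the high FOS cells, held the most, with 7 members at 10 CPM or more.

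The genes most like the mean of the members were compared over 10618 genes read in at least 50% of the cells. The 10 nearest had a mean rho of 0.40 to 0.47, against a median of 0.06 over all of them. They included ZFP36 (0.47), an mRNA-decay factor that is itself an immediate early gene, CDKN1A (0.44), the p21 cell cycle inhibitor, and MCL1 (0.42), a short-lived survival protein. SERTAD1, DEDD2, RAP2B, HDGF and B3GALT6 followed between 0.40 and 0.42. PHLDA3, a target of p53, appeared under 2 identifiers (0.47 and 0.42), between which the counting may have split reads. Of the 10 most opposite genes 6 were mitochondrial transcripts, MT-ND5 lowest at -0.38. For FOS alone the nearest genes were CLPP (0.38), HLCS (0.37), SNX2 (0.37), an identifier without a symbol (0.36) and ARPC5 (0.36). Members were not among the genes compared.

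The rest of the pathway was read from 6 lists, whose counts stand against the background shares given for the members, 19.8%, 6.77% and 11.5% of genes higher and 12.3%, 18.5% and 21% lower in epiblast-like, hypoblast-like and trophectoderm-like cells. Among 10 counted bZIP partners, 1 was higher and 3 lower in epiblast-like cells, 0 and 3 in hypoblast-like cells, and 3 and 1 in trophectoderm-like cells. JDP2, which pairs with JUN proteins and represses AP-1 sites, was at 80.03 CPM in trophectoderm-like cells against 6.04 CPM in the hypoblast-like class. BATF3, another JUN partner, reached 12.99 CPM in epiblast-like cells and 0.924 CPM in trophectoderm-like cells. ATF4 and MAFG, the list's most read genes, differed by 1.43-fold and 1.42-fold between their highest and lowest class. Trophectoderm-like cells thus held more JDP2 and less JUNB than the other classes.

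Among 7 counted immediate early transcription factors, 2 were higher and 1 lower in epiblast-like cells, 1 and 3 in hypoblast-like cells, and 1 and 2 in trophectoderm-like cells. KLF6 was at 303 CPM in hypoblast-like cells against 84.5 CPM in the epiblast-like class, and MYC at 96.6 CPM in trophectoderm-like cells against 20.95 CPM in the hypoblast-like class. Among 15 counted further immediate early and feedback genes, 3, 2 and 3 were higher and 4, 3 and 2 lower in the respective classes. BTG1, an antiproliferative gene, was at 281 CPM in trophectoderm-like cells against 36.7 CPM in the epiblast-like class. MCL1 reached 327 CPM in epiblast-like cells and 153.5 CPM in trophectoderm-like cells, and CCN1, a matricellular protein, at 18.1 CPM in trophectoderm-like cells against 2.16 CPM in the hypoblast-like class. Immediate early genes outside the list of members were thus not all highest in the same class.

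Among the listed dual-specificity phosphatases and Sprouty genes, more were higher in hypoblast-like cells than in either other class. DUSP1, a member and so not in this list, went the other way there. It was at 6.32 CPM against 10.4 CPM in all other cells, a difference under 2-fold. Of 9 counted dual-specificity phosphatases and Sprouty genes, 5 were higher in hypoblast-like cells, 2 in epiblast-like cells and 1 in trophectoderm-like cells, the last 2 counts being near background. In epiblast-like cells 5 were lower, in hypoblast-like cells 1 and in trophectoderm-like cells 4. The median log2 ratio of the 9 was 1.10 in hypoblast-like cells, against -0.15 over all genes. SPRY2, an inhibitor of receptor signalling to ERK, had 1.25 CPM in trophectoderm-like cells, but 34.7 CPM in the epiblast-like and 32.4 CPM in the hypoblast-like class. DUSP10 was at 10.2 CPM in hypoblast-like cells against 0.680 CPM in the trophectoderm-like class. DUSP5, a nuclear ERK phosphatase, was at 37.5 CPM in hypoblast-like cells against 6.56 CPM in the epiblast-like class, and within trophectoderm-like cells at 67.1 CPM in the smaller and 3.56 CPM in the larger cluster. DUSP14 differed by 1.42-fold between classes.

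The kinases upstream varied less. Of 12 counted genes, 0 were higher in epiblast-like or hypoblast-like cells and 1 in trophectoderm-like cells, and 1, 0 and 1 were lower. MAPK14, which encodes p38, was at 121.5 CPM in trophectoderm-like cells against 38.5 CPM in the epiblast-like class. Of 11 counted heat shock genes, 1 was higher in epiblast-like cells, HSPB1, at 1002 CPM against 70.9 CPM in trophectoderm-like cells, and it was the 1 that was lower in trophectoderm-like cells. HSP90AA1, HSPA8 and DNAJB1 differed by 1.29-fold, 1.25-fold and 1.71-fold between their highest and lowest class.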

How the data were processed

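Read counts per gene for 217 single cells were used as the authors deposited them, without normalization. The study's methods state trimming with FastP and alignment and counting with STAR on the chimpanzee genome with Ensembl annotation, whereas the submitters' processing notes list Trim Galore 0.6.6, STAR 2.7.7a and a human build. Reads carry no molecular identifiers. Symbols came from a table that covers 18783 of 33729 identifiers.

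Cells with fewer than 4000 reads or 8000 detected genes were left out, and 193 of the 217 stayed, more than the study states for the same limits, so the set of cells differs from its own. Scanpy 1.11.5 normalised the rest, and Leiden clustering (leidenalg 0.10.2; 50 components, 30 neighbours, resolution 1, seed 0) on genes read in at least 20 cells gave 4 clusters, named from marker lists. No doublet caller was run. Ratios of pooled CPM were called from 2-fold, correlations are Spearman's rho of log2(CPM + 1), and a count of 0 was given the limit of 3 counts. Work was done in Python 3.11.15 with scipy 1.17.1, matplotlib 3.10.9, pandas 2.3.3, igraph 0.11.9, numpy 2.4.6 and anndata 0.12.19, and the procedure was tested on simulated data.

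All members were named. From each further list the 2 genes with the highest level and up to 2 with the largest ratio between classes at 10 CPM or more were named, besides the 10 genes most like the members and the 5 most like FOS. The members and lists were chosen with earlier results of these data known. Pairs were counted over the 8 members that passed the filter. IER3 and HSPA1A had no matching identifier, and some genes that the rule names are not reported here. The division at 300 CPM of syncytiotrophoblast markers, ATF3 and other genes beyond these rules were chosen after their values were seen. Transcript lengths and sequences were not used here. Alternatives covered the filters, clustering, summary of CPM, size factors, thinning and correlation measure.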

Additional observations from a re-analysis of the deposited data

Results flagged for a closer look

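The 24 cells that did not pass the filter enter no comparison above, yet all 9 matched members had reads in them, above the limit of 3 reads (0.0685 CPM) that a count of 0 allows. Pooled over these cells FOS was at 16.4 CPM, FOSB at 33.9 CPM, FOSL1 at 12.3 CPM and FOSL2 at 4.68 CPM. JUNB was at 15.1 CPM, JUND at 53.2 CPM, EGR1 at 7.88 CPM, IER2 at 80.1 CPM and DUSP1 at 41.04 CPM. In 8 of the 9 the pooled level was higher than in passing cells, FOSL2 being the exception at 4.68 against 6.88 CPM. With the cell that held the most reads of each gene left out, and passing cells left whole, it was 4 of the 9, FOSB, EGR1, IER2 and DUSP1. EGR1 had reads in 2 of the 24 cells, and its remaining 3.77 CPM came from cell 29. FOSL1 was then at 0.851 CPM against 6.32 CPM in passing cells, JUNB at 5.83 against 11.38 CPM, FOS at 1.90 against 11.8 CPM and JUND at 37.4 against 40.3 CPM. Cell 41, with 1110270 reads and 6008 detected genes, held 88.7% of the FOS reads. In this cell 7 members lay above the highest passing cell, among them FOS at 573 CPM, DUSP1 at 840 CPM and IER2 at 1061 CPM. FOSB exceeded the highest passing cell in 5 of the 24 cells, and was at 20.05 CPM without the cell that held 46.1% of its reads, against 1.34 CPM in passing cells.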

How the results depend on the processing

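With 1 sample there was no replicate to leave out. No paired analysis was possible because all cells form 1 sample. The median rho of the pairs was 0.09 to 0.13 and 3 to 5 pairs reached 0.3 over the alternatives run. FOSL2 in hypoblast-like cells kept a log2 ratio of 2.24 to 3.33 and JUNB in epiblast-like cells 1.48 to 1.86. The median of single-cell CPM gave 2 members higher in epiblast-like, 2 in hypoblast-like and 1 in trophectoderm-like cells, and turned the log2 ratio of FOS to -2.19 in epiblast-like and 2.39 in trophectoderm-like cells, and that of FOSL2 to 0.34 in trophectoderm-like cells. Leaving out cells 26 to 32, added after seeing the data, gave 1 member higher in epiblast-like and 1 in trophectoderm-like cells, with FOS at -2.05 and 1.34. At 7000 detected genes 1 member, FOSB, was higher in trophectoderm-like cells. Between the trophectoderm-like clusters, 2 members differed at 7000 detected genes, with the listed genes left out of the clustering, at resolution 0.5, without the highest cell of each class, and with columns ordered by cell number (added later). Size factors by median of ratios gave 3 and a limit of 1.5-fold gave 4, while 15 neighbours gave no pair of clusters. Cells with 5 or more members numbered 3 at 50 CPM and 23 at 10 CPM (added later). IER2 fell under 2-fold in epiblast-like cells in 7 alternatives, at a log2 ratio of 0.79 to 0.99. The causes were not tested.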
